A study of Mus musculus with 22 samples.

Results

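The AMPA-type glutamate receptor was followed through 10 genes of the 37786 in the count table of the anterior cingulate cortex (ACC). They were taken by name: the pore-forming subunits Gria1, Gria2, Gria3 and Gria4, the transmembrane AMPA receptor regulatory proteins (TARPs) Cacng2, Cacng3 and Cacng8, the cornichons Cnih2 and Cnih3, and the CKAMP protein Shisa9. All 10 passed the filter on low counts. RNA came from bulk ACC tissue of 22 adult male C57BL/6J mice, labelled as wildtype. All mice had received, in the basolateral amygdala (BLA) of both sides, an AAV5 virus with channelrhodopsin-2 fused to EYFP under the CaMKIIa promoter, and an optic fiber on one side in the ACC. In the 10 mice of the group stim, blue light was delivered in 9 sessions and drove the terminals that BLA neurons send to the ACC. The 12 mice of the group ctrl were labelled as having no light and underwent the same procedure with the light off. Per the study's methods, the ACC was taken from both sides, days after the last session. The virus labels neurons of the BLA, whereas the RNA is that of all cells of the dissected cortex, so fewer cells of a type and less RNA per cell cannot be told apart in these values.

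AMPA receptors are tetramers of GluA1 to GluA4, the products of the Gria genes, and carry most of the fast excitatory current in the cortex. Receptors with edited GluA2 pass little calcium, because an adenosine in the codon of the glutamine/arginine site of the pore is edited to inosine. TARPs bring receptors to the synapse and slow their closing, cornichons assist their export and slow their kinetics, and CKAMP44, the product of Shisa9, modulates desensitization. The question here is how the mRNA of these proteins stood in the ACC after repeated activation of the BLA–ACC pathway.

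The stretch around the glutamine/arginine site is shown because it holds the codon that is edited in Gria2 mRNA, and because it lets their sequences be compared side by side. The codon of the site is in capitals, each line is the coding strand from 5′ to 3′, and each stretch lies in a coding exon of GRCm38 (mm10), from the GENCODE M21 transcripts.
Gria1, chr11:57243058-57243119, plus strand: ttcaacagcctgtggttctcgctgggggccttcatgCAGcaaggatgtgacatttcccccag
Gria2, chr3:80706888-80706949, minus strand: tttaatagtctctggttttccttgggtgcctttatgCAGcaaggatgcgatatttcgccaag
Gria3, chrX:41610229-41610290, plus strand: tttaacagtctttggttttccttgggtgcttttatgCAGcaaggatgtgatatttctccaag
Gria4, chr9:4464114-4464175, minus strand: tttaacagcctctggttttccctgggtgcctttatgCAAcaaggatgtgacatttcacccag
Between 49 and 57 of these 62 bases were identical in a pair, against 69.9% to 73.1% over the aligned coding sequences. The longest run of identical coding bases in any pair was 41, between Gria2 and Gria4, which is shorter than a read window of 50 bases. No 50-base window of Gria1, Cacng3, Cnih2, Cnih3 or Shisa9 occurred in a transcript of another gene. For Gria2, Gria3, Gria4 and Cacng8 the share of such windows lay between 0.335% and 1.83%, and it was 5.86% for Cacng2. Cacng2 shares 323 exonic bases with the antisense gene A730060N03Rik, and Cnih2 shares 14 with Yif1a on the opposite strand. Since the strand setting of the counting was not stated, reads from these overlaps cannot be told apart. The exons of the miRNA genes Gm25749, Gm22413 and Gm23450 lie in those of Gria2, Gria3 and Cacng8, and 19 of the 84 exonic bases of Gm23811 in those of Gria4.

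Libraries held between 23090483 and 43668462 counts. The labels number the libraries from 1 to 23 in 2 runs, each with controls first. Numbers 1 to 11 hold 6 ctrl and 4 stim mice, and numbers 12 to 23 hold 6 of each. The labels do not say that a run is a batch of animals or of sequencing. Values below are CPM, counts scaled to a common library size after TMM normalization, and differences are log2 fold changes with their standard error (SE). They come from edgeR's quasi-likelihood test with run as a term, across the 17524 genes tested, and a gene was called at an adjusted p under 0.05. Markers of excitatory cortical neurons, the cells in which these receptors are most familiar, were present in every library, with a summed level between 3150 and 3910 CPM in numbers 1 to 11 and between 4859 and 7812 CPM in numbers 12 to 23. Ctrl replicates 9 and 11 stood apart: the 7 oligodendrocyte markers summed to 19250 and 14190 CPM there, and to between 2287 and 6173 CPM in the other 20 mice.

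The most abundant member per length was Cnih2, at 239 ± 60 CPM per kilobase of exon (mean ± SD, n = 22 mice), above the next gene in 22 of 22 mice with no overlap of the ranges. Cacng3 followed at 82.5 ± 14.7 and Cnih3 at 56.3 ± 9.92 CPM per kilobase. Gria2 (50.5 ± 8.09) and Gria1 (49.95 ± 12.0) had nearly the same level on this scale, with Gria2 above Gria1 in 12 of 22 mice. Cnih3 and Gria2 were close as well, with Cnih3 above in 15 of 22 mice. Gria3 (26.2 ± 6.19) and Gria4 (16.9 ± 3.23) were lower, and each held its place in 22 of 22 and 20 of 22 mice. Shisa9 (12.9 ± 4.28) lay above Cacng2 (7.68, from 5.73 to 10.02) in 17 of 22 mice. Cacng8 (TARP γ-8) stood last at 0.924 ± 0.171 CPM per kilobase, below Cacng2 in every mouse without overlap. Among all genes tested, Gria2 was above 99.4% in CPM and Cacng8 above only 24.8%, so the least precise values here are those of Cacng8. Dividing by the longest annotated transcript instead changed the places of Cnih3 and Gria2 only, since the annotated exons of Gria2 together exceed any of its single transcripts.

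Expressed as a share of the 4 pore-forming genes, counts per kilobase of exon gave Gria2 35.5% ± 2.28, Gria1 34.6% ± 2.27, Gria3 18.1% ± 1.03 and Gria4 11.8% ± 1.08 (SD, n = 22). These shares depend on the length chosen. With the longest transcript, Gria2 took 38.3%, Gria1 27.1%, Gria3 24.7% and Gria4 9.86%. The share of Gria2, the subunit that limits calcium entry, was 35.5% ± 2.37 in ctrl and 35.6% ± 2.30 in stim. Gria4, which encodes the subunit GluA4, held 12.3% ± 1.14 in ctrl and 11.3% ± 0.700 in stim. Its share was lower on average in stim in both runs, with 12.3% ± 1.5 against 11.1% ± 0.704 in numbers 1 to 11 and 12.3% ± 0.788 against 11.4% ± 0.732 in numbers 12 to 23, and the groups overlapped in both. Being a ratio over the members, the shares were not tested.

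**Figure D1:**
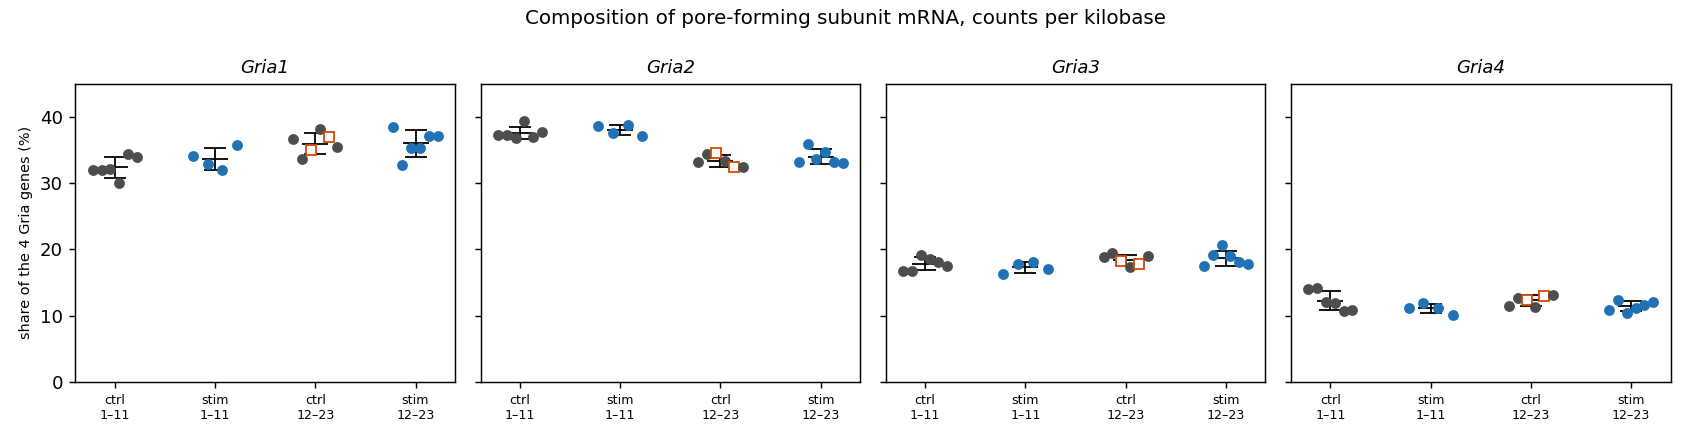
Share of each Gria gene in the summed counts per kilobase of the 4 genes (percent, y axis) in each mouse, by group and library numbers (x axis), with bars at the mean ± SD and open orange squares for ctrl replicates 9 and 11. Gria2 shares of numbers 12 to 23 (32.4% to 35.9%) lie below those of numbers 1 to 11 (36.8% to 39.4%), and stim Gria4 shares (10.1% to 12.3%) overlap those of ctrl (10.7% to 14.2%).

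None of the 10 members was called between stim and ctrl, as was the case for all genes tested: edgeR called 0.0% of 17524 genes, and 11.5% of them had an unadjusted p under 0.05 (6.05% with a higher level in stim). Among the members, 2 of 10 had an unadjusted p under 0.05, Cacng3 and Cnih3, both with a higher level in stim. DESeq2's Wald test and limma voom called none of the members, and called 0.188% and 0.00571% of all genes. Both had the same 2 of 10 members under an unadjusted p of 0.05, against 12.5% and 16.3% of all genes. The fitted value was above 0 for 9 of 10 members (median 0.08 on the log2 scale) and for 52.6% of all genes, and below 0 for Gria4. It was above 0 for 5 of 10 within library numbers 1 to 11 (median 0.01) and 9 of 10 within 12 to 23 (0.13). Without ctrl replicates 9 and 11 it was 7 of 10 (0.01), and with the oligodendrocyte marker level as a term 5 of 10 (0.03). Among all genes, 9162 of 18754, 8171 of 16675, 8811 of 17333 and 8250 of 17524 were below 0 in these 4 fits. Several members vary together from mouse to mouse, so their signs are not independent. With group as the only term, 1 of 10 members (Cacng3) had an unadjusted p under 0.05, against 3.61% of all genes.

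Cacng3, which encodes TARP γ-3, had the largest fitted difference. In numbers 1 to 11, ctrl mice ranged from 173.5 to 232.4 CPM with a median of 209.2, and the stim mice had 197.0, 242.1, 258.3 and 201.0 CPM. In numbers 12 to 23, ctrl ranged from 172.3 to 267.5 with a median of 205.2, and stim from 227.9 to 319.8 with a median of 275.4 CPM. All 6 stim mice of the second run lay above the ctrl median and 4 of them above every ctrl mouse, whereas in the first run 2 of 4 lay above. The log2 fold change was 0.26 (SE 0.09, 1.20-fold, 95% interval 1.07 to 1.34) with an unadjusted p of 0.00552 and an adjusted p of 0.329. It was 0.14 (SE 0.11, p = 0.248) within numbers 1 to 11, where 5.3% of all genes had an unadjusted p under 0.05. Within numbers 12 to 23 it was 0.34 (SE 0.11, p = 0.00759), where 12.6% had one.

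Cnih3, a cornichon of the AMPA receptor complex, had the second largest fitted difference. In numbers 1 to 11, ctrl ranged from 124.6 to 202.0 CPM with a median of 161.4, and the stim mice had 165.9, 155.3, 180.1 and 160.5 CPM, inside the ctrl range. In numbers 12 to 23, ctrl ranged from 93.9 to 150.3 with a median of 129.8, and stim from 145.5 to 178.2 with a median of 171.0 CPM, so that 5 of 6 stim mice lay above every ctrl mouse. The log2 fold change over both runs was 0.24 (SE 0.09, 1.18-fold, 95% interval 1.04 to 1.35; unadjusted p = 0.0171, adjusted p = 0.361). Within the runs it was 0.03 (SE 0.13, p = 0.824) and 0.39 (SE 0.11, p = 0.00224). The coefficient of variation was 6.37% in stim and 22.7% in ctrl, a contrast that was not tested.

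The values of Cacng3 and Cnih3 were read beside those of the oligodendrocyte markers. In numbers 12 to 23, the 2 lowest ctrl values of Cnih3 (93.9 and 104.4 CPM) and of Cacng3 (172.3 and 184.7 CPM) were those of ctrl replicates 9 and 11, the mice with the high marker sums. Of the 7 oligodendrocyte markers, 7 had lower fitted values in stim with an unadjusted p under 0.05, against 11.5% of all genes, and none was called. In numbers 1 to 11 none of the 7 had such a p (5.3% of all genes did) and 5 of 7 had fitted values above 0, whereas in numbers 12 to 23 all 7 had one (12.6% of all genes did) and lay below 0. Their summed level ranged from 3130 to 19250 CPM in ctrl and from 2287 to 5713 in stim, with no marker at 0. Without ctrl replicates 9 and 11, Cnih3 came to 0.13 (SE 0.08, unadjusted p = 0.119) and Cacng3 to 0.18 (SE 0.08, p = 0.0367). Within numbers 12 to 23 without these mice, Cnih3 was still 0.25 (SE 0.08, p = 0.0103) and Cacng3 0.23 (SE 0.11, p = 0.0564). With the log2 marker level as a term beside run, Cnih3 came to 0.07 (SE 0.07, p = 0.262) and Cacng3 to 0.11 (SE 0.07, p = 0.0998). The study reported lower expression of oligodendrocyte genes and fewer Olig2+ cells after stimulation. A marker level changed by the light and one that differed otherwise cannot be told apart here. Markers of other cells had an unadjusted p under 0.05 as well, with none called. Of the 3 choroid plexus markers tested these were Ttr (-1.88) and Clic6 (-1.17), while Kcnj13 was at 0.42 (p = 0.278), and the summed level of that list was 6.38 to 133.3 CPM in ctrl and 2.85 to 15.9 in stim. Of the 7 markers of excitatory neurons they were Slc17a7 (0.16) and Slc17a6 (-0.64), of the 7 of GABAergic neurons Slc32a1 (0.31) and Sst (0.24) in a list with a median of 0.02 and 2 genes below 0, and of the 4 of oligodendrocyte progenitors Olig2 (-0.29), all as log2 fold changes of stim over ctrl. No marker of astrocytes, endothelial cells, microglia or striatal neurons had such a p. The part of these cell markers in the differences of Cnih3 and Cacng3 was not tested.

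**Figure D2:**
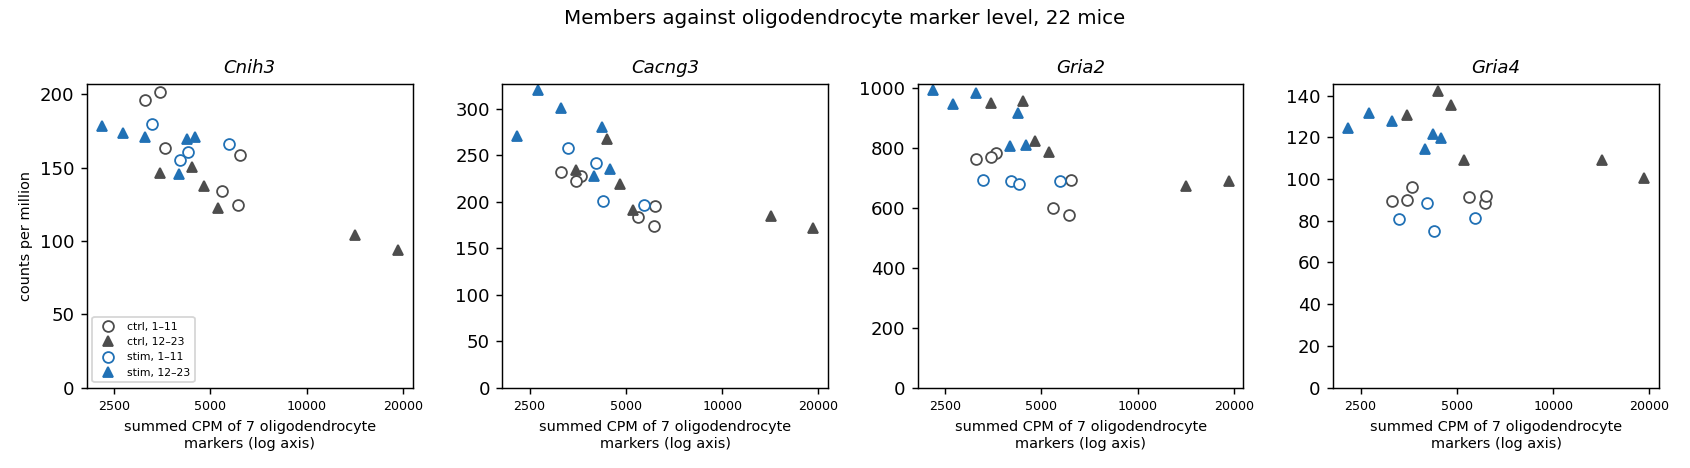
CPM of Cnih3, Cacng3, Gria2 and Gria4 (y axis) against the summed CPM of 7 oligodendrocyte markers (x axis, log scale), with 1 point for each of 22 mice, gray for ctrl and blue for stim, open circles for library numbers 1 to 11 and filled triangles for 12 to 23. Ctrl replicates 9 and 11, at 19250 and 14190 CPM of markers, have the lowest Cnih3 values of all mice, at 93.9 and 104.4 CPM.

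Among the remaining TARPs, Cacng2 (stargazin) and Cacng8 did not reach an unadjusted p of 0.05. Cacng2 ranged from 31.6 to 55.2 CPM in ctrl (median 40.6) and from 35.0 to 52.2 in stim (median 42.0), a log2 fold change of 0.06 (SE 0.07). Its 95% interval ran from -0.08 to 0.19, and its difference from Cacng3 was not tested. Cacng8 ranged from 1.46 to 2.70 CPM in ctrl (median 2.16) and from 1.87 to 2.77 in stim (median 2.17), with a log2 fold change of 0.16 (SE 0.12, p = 0.175). In numbers 12 to 23, 5 of 6 ctrl mice had less Cacng8 than every stim mouse, but 1 ctrl mouse, replicate 12, lay among the higher stim values at 2.33 CPM. Cnih2 ranged from 191.9 to 501.3 CPM in ctrl (median 304.1) and from 217.0 to 447.6 in stim (median 332.3), a difference of 0.07 (SE 0.09). Shisa9 ranged from 41.1 to 94.5 CPM in ctrl (median 59.5) and from 39.7 to 108.2 in stim (median 72.3), a difference of 0.08 (SE 0.10). For both the groups overlapped broadly, and their fitted values had opposite signs in the 2 runs (-0.03 and 0.13 for Cnih2, -0.11 and 0.20 for Shisa9).

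The principal pore subunits Gria1 and Gria2 had almost the same fitted value, 0.08 (SE 0.08, p = 0.287) and 0.08 (SE 0.07, p = 0.290). Gria1 ranged from 191.6 to 423.0 CPM in ctrl (median 274.2) and from 222.0 to 411.5 in stim (median 342.5). Gria2 ranged from 575.0 to 956.6 CPM in ctrl (median 766.6) and from 680.3 to 993.9 in stim (median 808.6). Both genes were higher in numbers 12 to 23, from which 6 of 10 stim and 6 of 12 ctrl mice came. Inside numbers 1 to 11 the 4 stim mice had 688.6, 690.8, 692.0 and 680.3 CPM of Gria2, close together and between the low and high ctrl mice. Without ctrl replicates 9 and 11 the fitted values of both genes were near 0, at 0.01 (SE 0.07) for Gria1 and 0.00 (SE 0.07) for Gria2. Gria3 ranged from 163.7 to 343.2 CPM in ctrl (median 234.7) and from 183.3 to 385.9 in stim (median 277.7), and its value of 0.05 (SE 0.09) turned to -0.04 (SE 0.08) without these mice.

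Gria4 was the member with a negative value, -0.06 (SE 0.06, unadjusted p = 0.330). In numbers 1 to 11 the 4 stim mice had 81.1, 88.3, 80.7 and 75.3 CPM, all below the 6 ctrl mice, which ranged from 88.6 to 96.1 with a median of 90.6 CPM. No other member had groups without overlap in that run, where 1.24% of all genes did, and the log2 fold change there was -0.15 (SE 0.07, p = 0.0584). In numbers 12 to 23 the groups overlapped, with ctrl from 100.4 to 142.4 (median 119.8) and stim from 114.5 to 131.6 (median 122.9), and the log2 fold change was 0.00 (SE 0.09, p = 0.959). No member was free of overlap in that run, against 0.558% of all genes. Ctrl replicates 9 and 11 were again the lowest there, at 100.4 and 108.9 CPM. Without them the value over both runs was -0.13 (SE 0.05, unadjusted p = 0.0153, adjusted p = 0.625), so that 2 of 10 members remained under an unadjusted p of 0.05, but with Gria4 in the place of Cnih3, against 7.73% of all genes. With the oligodendrocyte marker level as a term Gria4 was the 1 member under that p, at -0.14 (SE 0.05, p = 0.0103, adjusted p = 0.598), against 7.9% of all genes.

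**Figure D3:**
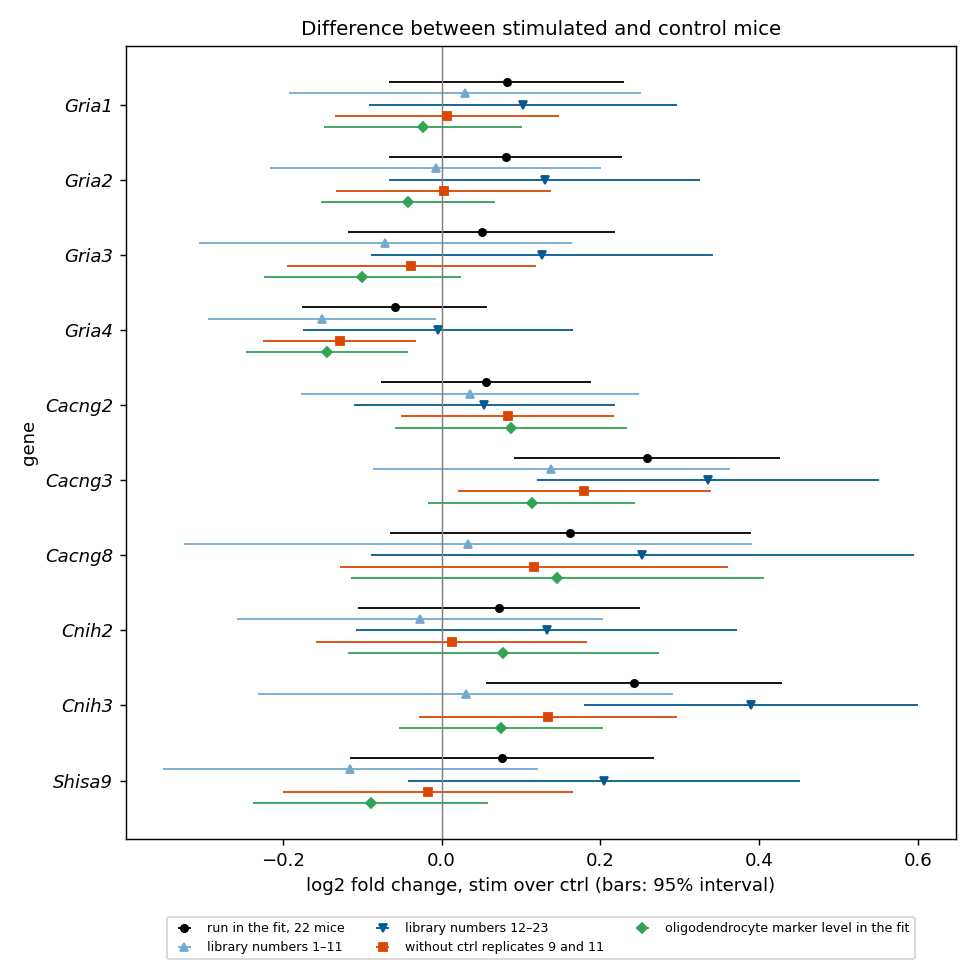
Log2 fold change of stim over ctrl (x axis) with its 95% interval for each member (y axis), over all 22 mice with run in the fit, within each run of library numbers, without ctrl replicates 9 and 11, and with the oligodendrocyte marker level in the fit. Cnih3 moves from 0.24 to 0.13 and 0.07 in the last 2 of these fits, and Gria4 from -0.06 to -0.13 and -0.14.

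The test of unequal group differences in the 2 runs called none of the members. Cnih3 alone had an unadjusted p under 0.05, with an interaction of 0.40 on the log2 scale (SE 0.18, p = 0.0315, adjusted p = 0.597), against 8.01% of all genes. Shisa9 came next at 0.36 (SE 0.19, p = 0.0619). All 10 members had interactions above 0, as did 57.9% of all genes, that is, the stim minus ctrl difference was larger in numbers 12 to 23, where ctrl replicates 9 and 11 are. Several members vary together from mouse to mouse, so these signs are not independent. The smallest was that of Cacng2 at 0.06 (SE 0.14).

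Most members, like most genes, differed between the runs. Of the 10 members, 8 were called between the runs, against 68.1% of all genes. Of these, 5 were higher and 3 lower in numbers 12 to 23, against 33.7% and 34.3% of all genes. In size, the run differences of the members exceeded those of 15.9% (Cacng3) to 77.1% (Shisa9) of all genes. The pore subunits all stood higher in the second run, by 0.59 (SE 0.08) for Gria1, 0.55 (SE 0.09) for Gria3, 0.49 (SE 0.06) for Gria4 and 0.30 (SE 0.07) for Gria2 on the log2 scale. Shisa9 had the largest difference of any member, 0.82 (SE 0.10, 1.76-fold), from 47.6 ± 6.42 CPM (SD, n = 10) to 84.5 ± 15.9 (n = 12). Cnih2 was lower in the second run by 33.3%, from 398.6 ± 54.9 to 267.7 ± 43.9 CPM, and Cacng8 (-0.35, SE 0.12) and Cacng2 (-0.34, SE 0.07) were lower too. Adjusted p-values of these 8 were between 5.45e-08 and 0.00910. Cnih3 (-0.20, adjusted p = 0.0637) and Cacng3 (0.14, adjusted p = 0.139) were not called. Only Gria4 and Shisa9 had runs without overlap, 2 of 10 members against 26.1% of all genes.

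The composition of the pore subunit mRNA differed with the run as well. The share of Gria2 among the Gria genes was 37.7% ± 0.888 in numbers 1 to 11 and 33.7% ± 1.03 in numbers 12 to 23, and that of Gria1 was 32.9% ± 1.63 and 35.96% ± 1.73. Other features of the libraries moved with the run. Of the 7 markers of excitatory neurons, 5 were higher and 1 lower in numbers 12 to 23 at an adjusted p under 0.05, beside the 33.7% and 34.3% of all genes given above. Among these, Slc17a7 was 1.95-fold and Camk2a 2.33-fold higher, and the summed level of the list did not overlap between the runs. The mitochondrial share of counts was between 1.63% and 4.81% in numbers 1 to 11 and between 0.982% and 1.90% in numbers 12 to 23. Over 17516 genes, the run difference had a Spearman correlation of 0.672 with the log2 length of the longest transcript and of -0.001 with its GC content, across genes that share the same libraries. For the group difference the 2 correlations were -0.164 and 0.264. Among the members, the longest transcripts of Cnih2 (1343 bases), Cacng8 (1897) and Cnih3 (2668), with fitted values lower in numbers 12 to 23, are the shortest. Those with higher values there were Cacng3 (2777), Shisa9 (4326) and the Gria genes (5206 to 10371). Cacng2 (5510) is as long as several of these but was lower. The transcripts of Cnih2 (GC 62.3%) and Cacng8 (65%) are the richest in GC among the members, and that of Gria2 (36.8%) the poorest. The part of these features in the run differences of the members was not tested.

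**Figure D4:**
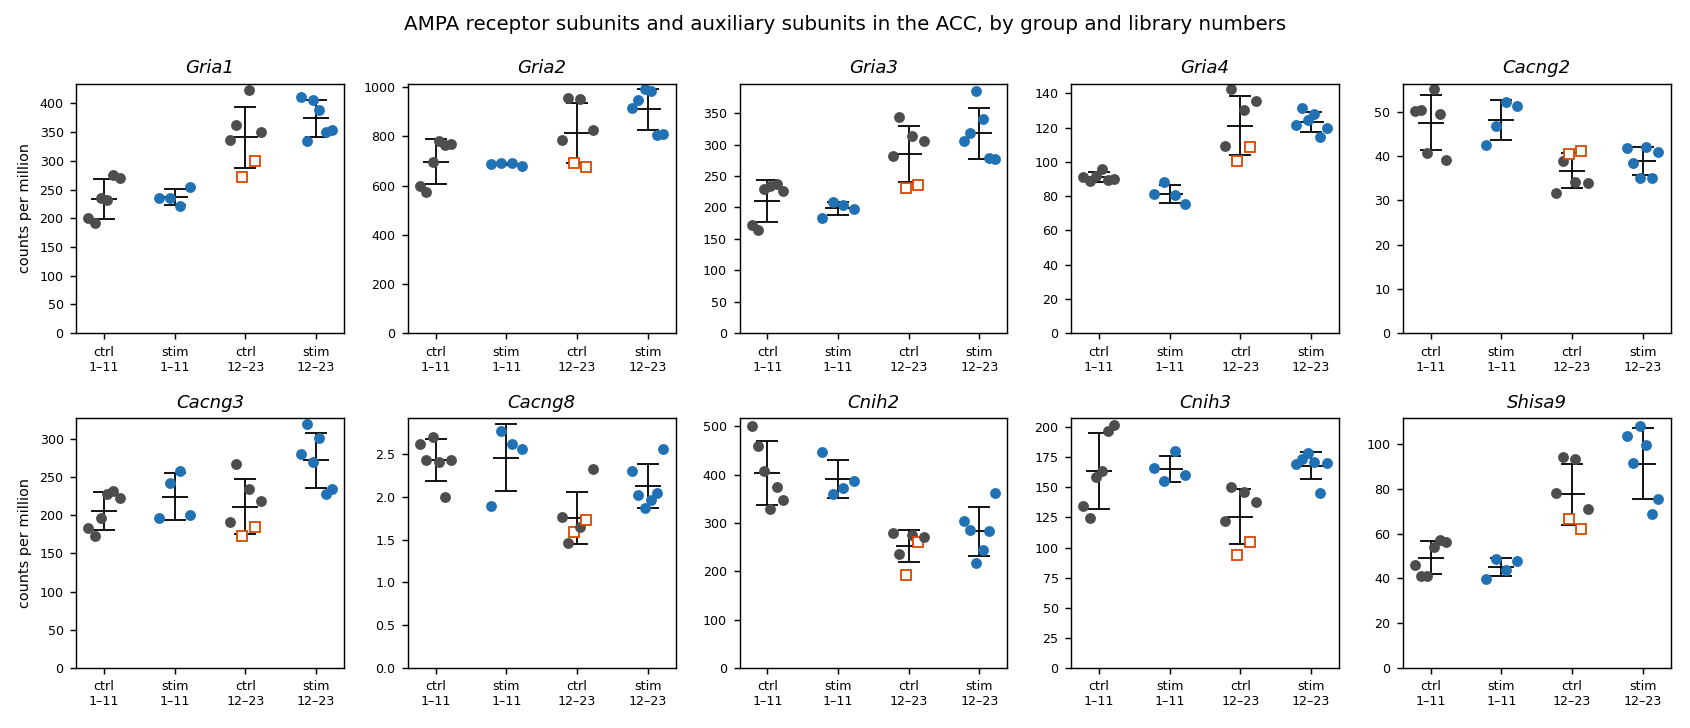
CPM of each of the 10 members (y axes from 0) in each of 22 mice, by group and library numbers (x axis), with bars at the mean ± SD and open orange squares for ctrl replicates 9 and 11. Shisa9 goes from 39.7 to 57.0 CPM in numbers 1 to 11 and from 62.0 to 108.2 in numbers 12 to 23, while stim and ctrl overlap within each run except for Gria4 in numbers 1 to 11.

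A wider list of 38 genes of the receptor complex, its assembly and its trafficking was read in the same way. None was called between stim and ctrl. An unadjusted p under 0.05 was found for 7 of 38, of which 6 had a higher level in stim, beside the 11.5% of all genes given above. The median log2 fold change of the list was 0.07, and 25 of 38 values were above 0. The genes of clustering at the synapse included Nptxr, the neuronal pentraxin receptor, at 0.31 (SE 0.11, p = 0.00845), and Nptx2, a secreted pentraxin that gathers AMPA receptors, at 0.29 (SE 0.12, p = 0.0200). Among the constituents of the complex were Olfm1, a secreted olfactomedin (0.19, SE 0.06, p = 0.00577), Prrt1, also known as SynDIG4 (0.28, SE 0.12, p = 0.0246), and Syndig1 (0.16, SE 0.08, p = 0.0413). Olfm3, a paralog of Olfm1, was the gene with a lower level in stim, at -0.28 (SE 0.11, p = 0.0198). Abhd6, a hydrolase that restrains receptor delivery, completed the group at 0.14 (SE 0.05, p = 0.0104). Adjusted p-values of these 7 were between 0.333 and 0.416. With the oligodendrocyte marker level as a term, 5 of 38 had an unadjusted p under 0.05, 2 of them (Abhd6 and Olfm3) among the 7, against 7.9% of all genes, and the median of the list was 0.02. Without ctrl replicates 9 and 11, 6 of 38 had one, 5 of them among the 7, against 7.73% of all genes. The part of the marker level in these differences was not tested.

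In CPM, Nptxr was 310.5 ± 144.6 in ctrl and 440.0 ± 210.1 in stim, and Nptx2 was 38.9 ± 14.3 and 51.2 ± 17.9 (mean ± SD over 12 and 10 mice). Nptxr was also 1.32 higher (log2, SE 0.11) in numbers 12 to 23 than in 1 to 11. These 7 genes, chosen by their p over both runs, had the same sign in each run, with values of 0.12 and 0.44 for Nptxr, 0.23 and 0.32 for Nptx2, and -0.41 and -0.20 for Olfm3. Over the whole list, 14 of 38 genes had opposite signs in the 2 runs. An interaction with an unadjusted p under 0.05 was found for 5 of 38, against the 8.01% of all genes given above, and none was called. Grip2, a scaffold protein (0.51 and -0.15, p = 0.00207), Shisa8 (0.53 and -0.86, p = 0.00431) and Cacng5, a TARP (0.71 and -0.22, p = 0.00579), were above 0 in numbers 1 to 11 and below 0 in numbers 12 to 23. Gsg1l (p = 0.0116) and Nrn1 (p = 0.0429) had interactions above 0. These 5 were named after their values were seen. With group as the only term, 1 of 38 (Prrt1) had an unadjusted p under 0.05, against 3.61% of all genes, and without ctrl replicate 7 the count was 4, against 9.17%. Between the runs, 24 of the 38 were higher and 6 lower in numbers 12 to 23 at an adjusted p under 0.05, beside 33.7% and 34.3% of all genes. The editing enzyme of the glutamine/arginine site, Adarb1, was measured at 82.3 ± 23.3 CPM in ctrl and 80.4 ± 17.7 in stim, with a log2 fold change of -0.09 (SE 0.07, p = 0.202).

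Within group and run, the members fell into sets that varied together from mouse to mouse. Gria1 to Gria4, Cacng3, Cnih3 and Shisa9 had positive correlations of residual log2 CPM in all 21 pairs, with Pearson's r from 0.449 to 0.940 over 22 mice. The strongest was that of Gria2 with Gria3 (0.940), followed by Gria2 with Cnih3 (0.878). Cacng2, Cacng8 and Cnih2 did not follow them: the 24 pairs that include one of these had r from -0.369 to 0.405 over 22 mice. These sets were drawn after the values were seen. Without ctrl replicates 9 and 11 the 21 pairs still had r above 0, but from 0.048 to 0.908, while the 24 pairs ran from -0.823 to 0.345. The lowest were those of Cnih2 with Gria3 (-0.823, against -0.369 over 22 mice) and with Gria2 (-0.745, against -0.313). The points share their libraries and scaling, and the same 7 members had r from -0.839 to -0.710 with the log2 oligodendrocyte marker level over 22 mice, and from -0.756 to -0.350 over the 20 others. Over 22 mice their r was from -0.858 to -0.647 with the markers of oligodendrocyte progenitors and from -0.737 to -0.176 with those of astrocytes. It was from -0.581 to -0.123 with those of microglia and from -0.564 to -0.091 with those of endothelial cells. With the mitochondrial share it was from -0.6 to -0.004, and with choroid plexus markers from -0.369 to 0.083. For striatal neurons it was from 0.400 to 0.682, for GABAergic neurons from 0.054 to 0.52 and for excitatory neurons from -0.165 to 0.315. Cnih2 had r of -0.002 with the log2 oligodendrocyte marker level over 22 mice and 0.689 over the 20. Over 22 mice its r was 0.877 with the markers of excitatory neurons, 0.791 with those of microglia, 0.790 with those of astrocytes, 0.696 with the mitochondrial share and -0.715 with the markers of GABAergic neurons.

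**Figure D5:**
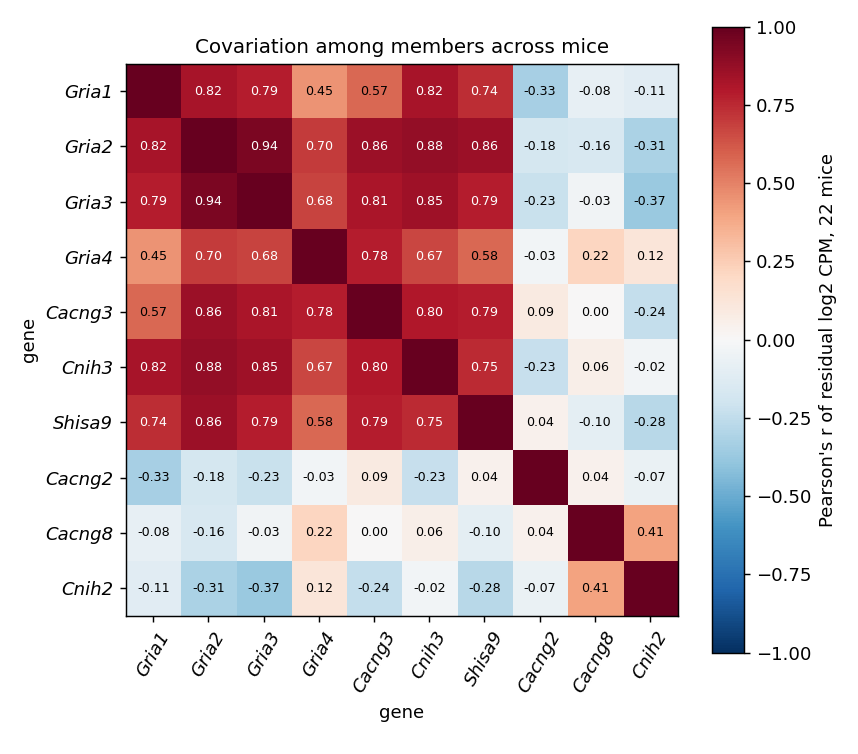
Pearson's r between each pair of members (x and y axes) for log2 CPM after removal of group and run, over 22 mice, from blue (-1) to red (1). The block of Gria1 to Gria4, Cacng3, Cnih3 and Shisa9 has r from 0.449 to 0.940, and the rows of Cacng2, Cacng8 and Cnih2 are paler, from -0.369 to 0.405.

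Among 11652 genes with a mean of at least 5 CPM, those most like each member in this respect were genes outside the list. For Gria2 they were Plppr4, a phospholipid phosphatase-related protein of glutamatergic synapses (r = 0.961), and Pnma2 (0.956). Gria1 was nearest to Ap2a2, a subunit of the clathrin adaptor AP-2 (0.928), and Prmt2, an arginine methyltransferase (0.903). Gria3 was nearest to Nol4 (0.952) and the adhesion protein Cntn1 (0.949). Among the genes close to Gria4 was the GABA-A receptor subunit Gabra4 (0.899). Cacng3 was most like Pcsk2, a prohormone convertase (0.936), and Stx1a, a SNARE protein of transmitter release (0.929). Cnih3 was most like the prion protein gene Prnp (0.945) and Sirpa (0.939), and Shisa9 like the transcriptional regulators Aff4 (0.928) and Ets2 (0.927). Cnih2 was nearest to Fbxl16 (0.961) and the RNA-binding protein Celf4 (0.959). Lower values were found for Cacng2, with the neuronal RNA-binding protein Elavl3 (0.849) and Mpst (0.751), and for Cacng8, with Nup37 (0.766) and Ptrh2 (0.765).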

How the data were processed

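ACC tissue of 22 mice was sequenced from SMARTSeq v4 libraries. Per the labels and the study's methods, the authors used cutadapt 1.10 for trimming and STAR 2.5.3a for alignment to mm10, and deposited raw counts of unique reads per Ensembl gene from HTSeq 0.6.1p1. The deposited normalized counts (signal) and the columns of the authors' own comparison (fold changes and p-values from DESeq2 1.22.1) were not used. Groups came from the labels. Genes reaching 10 counts in 10 or more mice were fitted with edgeR 4.0.16 (TMM scaling, quasi-likelihood test, two-sided, terms run and group, Benjamini-Hochberg over all genes, tested on simulated data). The study's covariates, batch and RNA integrity, are not in the labels, and run is the split of libraries read from the order of their numbers. DESeq2 1.42.0, limma 3.58.1 and sva 3.50.0 served for alternatives. Log2 CPM used a prior count of 2. Named were all members, wider-list genes under an unadjusted p of 0.05 (up to 10), the 2 genes most like each member (1 for Gria4, where the other is not reported here), genes overlapping a member's exons, and, added after their values were seen, Adarb1, 5 wider-list genes with an interaction and the cell markers given by name. Members and lists were chosen with earlier results of these data known. Levels per length used GENCODE M21 exons (GRCm38), to which 37772 identifiers matched. Intervals are 1.96 SE, a normal approximation that is too narrow for fits of few mice.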

Additional observations from a re-analysis of the deposited data

Results flagged for a closer look

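In groups of 4 to 10 mice, 50 sets of 1 member (the stim group, and each group within each run) were searched for a mouse whose gap to its neighbour was large against the range, a rule that flags about 1 in 20 by chance, and 2 stood out. Ctrl replicate 12 had 2.33 CPM of Cacng8, the highest of the 6 ctrl mice of library numbers 12 to 23, the next being 1.76 CPM. Stim replicate 9 had 145.5 CPM of Cnih3, the lowest of the 6 stim mice of that run, the next being 169.6 CPM.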

How the results depend on the processing

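No member was called between stim and ctrl under any of the 37 alternatives. The run and interaction tests were repeated under 5 of them (DESeq2's Wald test, its size factors, both other count filters and limma voom), with 8 or 9 members called between the runs, where 36.3% (no count minimum) to 73.6% (10 counts in every mouse) of all genes were, and none for an interaction. Cacng3, Cnih3 and Cacng8 were above 0 in all 37. Members under an unadjusted p of 0.05, 2 in the report (Cacng3 and Cnih3), numbered 1 with group as the only term (Cacng3; 3.61% of all genes), 0 within library numbers 1 to 11 (5.3%) and 3 with the mitochondrial share as a term (Cnih2 joining; 10.6%). Without ctrl replicates 9 and 11, a setting chosen with their marker levels known, they were 2 (Cacng3 and Gria4; 7.73%). They numbered 1 each under the 2 further alternatives added after seeing the data, the oligodendrocyte marker level as a term (Gria4; 7.9%) and numbers 12 to 23 without ctrl replicates 9 and 11 (Cnih3; 4.91%). Leaving out each mouse in turn left the same 2 and the sign of all 10 members, but moved small fitted values by over 1.5 times, with ranges such as 0.0126 to 0.1025 for Cnih2, 0.0043 to 0.0646 for Gria3, 0.0369 to 0.1052 for Gria1 and -0.1003 to -0.0486 for Gria4. In the wider list the count went from 7 to 1 with group alone (1 of the 7), 4 within numbers 1 to 11 (1 of the 7), 5 with the oligodendrocyte marker level (2 of the 7) and 2 in numbers 12 to 23 without ctrl replicates 9 and 11 (both of the 7), and ranged from 4 (without ctrl replicate 7) to 8 with each mouse left out. The cause of these shifts was not tested.

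Signs turned as follows. Within numbers 1 to 11 the log2 fold change was -0.0071 for Gria2, -0.0708 for Gria3, -0.027 for Cnih2 and -0.1146 for Shisa9. With group alone it was 0.0045 for Gria4 and -0.0071 for Cnih2. With the mitochondrial share as a term, Gria3 was -0.0141. Without ctrl replicates 9 and 11, Gria3 was -0.038 and Shisa9 -0.0171. With the oligodendrocyte marker level it was -0.0233 for Gria1, -0.0422 for Gria2, -0.0997 for Gria3 and -0.0893 for Shisa9, and in numbers 12 to 23 without those 2 mice it was -0.0049 for Gria1.

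The replicate numbers shared by ctrl and stim did not pair the mice: deviations of same-numbered mice correlated by 0.308 on average around the group means (from -0.367 to 0.635, 8 of 10 pairs over 0.1) and by 0.051 around the means of group and run (3 of 10), and 5 and 2 of 20 mice were closest to their own number. With the replicate number as a block beside run, 2 members (Cacng3 and Cnih3) had an unadjusted p under 0.05, against 11.4% of all genes, and none was called. With the block and no run there were 2 (Cacng3 and Gria1), against 7.44%, and 0, and the log2 fold change was 0.0258 for Gria4, -0.0166 for Cacng2 and -0.0483 for Cnih2. Depth limited Cacng8 most.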
